A study of Rattus norvegicus with 4 samples.

Results

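The miR-15, miR-16, miR-195 and miR-497 family is a group of microRNAs (miRNAs, short RNAs that guide repression of messenger RNAs) with a common start. Its members were taken by name, as the rows without an asterisk for miR-15a, miR-15b, miR-16, miR-195 and miR-497, a rule that uses names and no measured value. Of these 5 names, 4 had a row among the 680 rat miRNA names in the files, and miR-15a was not analysed here. The values come from small RNA libraries of rat liver, 2 labelled as hepatic fibrosis tissue and 2 as normal hepatic tissue, made from total RNA. The sources used here give no strain, age or sex of the rats, no way in which fibrosis was brought about, and no statement that replicates are separate animals. Replicate 2 of fibrosis and replicate 2 of normal had files with the same value for each of the 680 names, with 0 differences. The column header of the fibrosis file is its own sample title, while that of the normal file is FT93, which is the title of none of the 4 samples. They were counted once, as the duplicated library, whose tissue is left undecided because it carries both labels. This leaves 3 distinct libraries, and the 2 that stand under a single label are called fibrosis 1 and normal 1 here, after their replicate number. A difference between fibrosis 1 and normal 1 therefore has no replicate check and describes these libraries, not the conditions.

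A miRNA recognises its targets mainly through its seed, bases 2 to 8 from its 5′ end, and members of 1 seed family therefore share many predicted targets. The miR-15/16 family is known for repressing BCL2, cyclins and other genes of survival and cell division, and in human chronic lymphocytic leukaemia the locus of miR-15a and miR-16 is often deleted. In cultured rat hepatic stellate cells, the cells that lay down collagen in fibrosis, miR-15b and miR-16 have been described as lower after activation, and miR-195 has been described in mouse heart as a brake on cell division after birth.

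The mature sequences are shown because the family is defined by its seed, which is in capitals. They are RefSeq's 5p arms of build GRCr8, printed 5′ to 3′, and all 4 members were matched by name. The last 2 are the relatives encoded together on the X chromosome, which the rule does not include.
miR-15b: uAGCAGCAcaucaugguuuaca
miR-16: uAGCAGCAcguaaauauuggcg
miR-195: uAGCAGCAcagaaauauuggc
miR-497: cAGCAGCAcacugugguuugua
miR-322: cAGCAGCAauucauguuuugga
miR-503: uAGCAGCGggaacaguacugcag

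The seed AGCAGCA was held by 5 of the 724 mature sequences in the RefSeq table (0.691%), the 4 members and miR-322, while miR-503 differs from it in the last seed base. Beyond the seed the members fall into different pairs. Counted from the 5′ end without gaps, miR-16 and miR-195 were identical at 19 of 21 bases, and miR-15b and miR-497 at 16 of 22. miR-16 and miR-497 were identical at 11 of 22. How reads that match several miRNAs were assigned is not stated in these sources, so the division of reads between miR-16 and miR-195 in particular is uncertain.

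The genomic pairs cut across these sequence pairs. In GRCr8, miR-15b (chr2:155555197-155555218) and miR-16 (chr2:155555343-155555364) lie on the plus strand of chromosome 2, with starts 146 bases apart, within the span of Smc4, a condensin subunit gene. miR-497 (chr10:55450172-55450193) and miR-195 (chr10:55450509-55450529) lie on the plus strand of chromosome 10, with starts 337 bases apart. No annotated gene spans them, and the nearest protein-coding genes are Bcl6b before them and C10h17orf49 after them. Each of the 4 mature sequences had 1 locus in that table. The table lists no miR-15a, so a further miR-16 locus beside it could be missing there. All reads of miR-16 are counted here with the chromosome 2 pair, and their locus of origin was not tested. Members of 1 pair can be cut from 1 primary transcript. The hairpins of the chromosome 10 pair are shown because their mature miRNAs kept an almost fixed ratio in these libraries, with the mature arm in capitals.
mir-497: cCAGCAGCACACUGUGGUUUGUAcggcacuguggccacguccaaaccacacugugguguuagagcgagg
mir-195: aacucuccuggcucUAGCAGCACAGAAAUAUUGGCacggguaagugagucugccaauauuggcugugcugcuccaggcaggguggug

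Levels are in RPM, reads scaled by the authors to a common library size. The totals behind this scaling were 6951148 reads for fibrosis 1, 7070374 for normal 1 and 6357069 for the duplicated library. Reads on listed miRNAs numbered 3507179 in fibrosis 1, 3653412 in normal 1 and 3339603 in the duplicated library. Intervals are exact 95% intervals and cover the error of counting alone, without any from PCR duplication. The RPM worth of 1 read was recovered from the smallest value above 0, refined on the larger values.

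The family was a small part of the liver miRNA pool, and its sum was lower in fibrosis 1 than in normal 1. It summed to 717 reads (103 RPM) in fibrosis 1, 903 reads (128 RPM) in normal 1 and 695 reads (109 RPM) in the duplicated library. Its share of the reads on listed miRNAs was 0.0204% (0.0190 to 0.0220) in fibrosis 1 and 0.0247% (0.0231 to 0.0264) in normal 1, intervals that do not overlap. In the duplicated library the share was 0.0208% (0.0193 to 0.0224), close to that of fibrosis 1. The ratio of the summed RPM of fibrosis 1 to normal 1 was 0.808 (0.731 to 0.892), and its interval stayed below 1 in each of the 6 scalings tried. In the duplicated library the sum stood at 0.856 (0.774 to 0.946) of that in normal 1, with an interval below 1 in 4 of the 6 scalings. In fibrosis 1 the sum stood at 0.944 (0.849 to 1.05) of that in the duplicated library. With miR-16 left out, the sum in fibrosis 1 was 0.868 (0.745 to 1.01) of that in normal 1, not distinguishable from 1. The lower family sum therefore rests on miR-16.

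miR-16 was the most abundant member and the one whose interval lay apart between the libraries of the 2 labels. It stood at 57.3 RPM (398 reads) in fibrosis 1, 74.8 RPM (529 reads) in normal 1 and 54.9 RPM (349 reads) in the duplicated library. Normal 1 was thus the high library, and the other 2 lay close together. By level it ranked 36th of 250 miRNAs with reads in fibrosis 1, 35th of 239 in normal 1 and 37th of 236 in the duplicated library. The ratio of fibrosis 1 to normal 1 was 0.765 (0.670 to 0.873), and that of the duplicated library to normal 1 was 0.734 (0.639 to 0.842), both with intervals below 1 in each of the 6 scalings. Fibrosis 1 over the duplicated library was 1.04 (0.901 to 1.21), and with upper-quartile factors this ratio fell below 1, at 0.901.

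miR-15b, encoded next to miR-16, was the scarcest member. It stood at 5.90 RPM (41 reads) in fibrosis 1, 6.93 RPM (49 reads) in normal 1 and 3.78 RPM (24 reads) in the duplicated library. At this depth a difference between fibrosis 1 and normal 1 was not detectable, with a ratio of 0.851 (0.548 to 1.32). The duplicated library was the low one, at 0.545 (0.320 to 0.905) of normal 1, an interval that stayed below 1 in each of the 6 scalings. Fibrosis 1 over the duplicated library was 1.56 (0.922 to 2.70).

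miR-195 stood at 24.0 RPM (167 reads) in fibrosis 1, 27.4 RPM (194 reads) in normal 1 and 30.0 RPM (191 reads) in the duplicated library. Its pair mate miR-497, which shares the seed and is processed from the neighbouring hairpin, stood at 15.97 RPM (111 reads), 18.5 RPM (131 reads) and 20.6 RPM (131 reads) in the same libraries. For both, fibrosis 1 was the lowest and the duplicated library the highest, and neighbours in that order had overlapping intervals. The ratio of fibrosis 1 to normal 1 was 0.876 (0.708 to 1.08) for miR-195 and 0.862 (0.663 to 1.12) for miR-497. Between fibrosis 1 and the duplicated library it was 0.800 (0.646 to 0.989) for miR-195, an interval below 1 in 4 of the 6 scalings, and 0.775 (0.596 to 1.01) for miR-497.

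**Figure D1:**
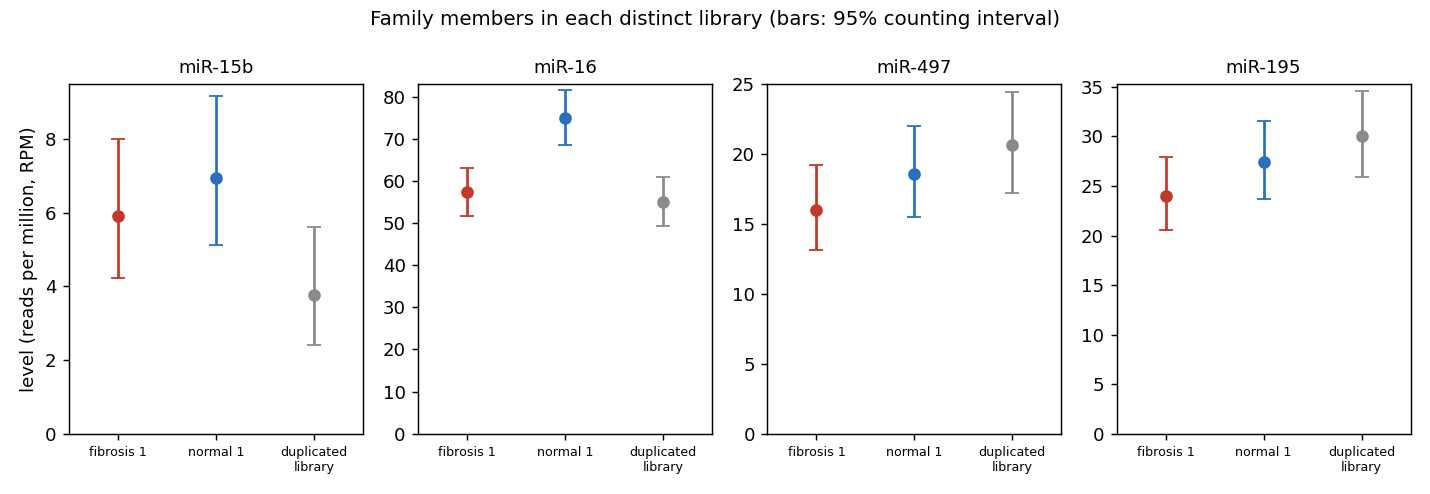
Level of each member in RPM (vertical axes, each from 0) in fibrosis 1, normal 1 and the duplicated library, with bars for the exact 95% counting interval. miR-16 was highest in normal 1 at 74.8 RPM, while miR-195 and miR-497 were highest in the duplicated library at 30.0 and 20.6 RPM.

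The order of the members by level, miR-16, miR-195, miR-497, then miR-15b, was the same in the 3 libraries. No interval of a member overlapped that of the next one in any of them: in fibrosis 1, for example, miR-195 spanned 20.52 to 27.96 RPM and miR-497 spanned 13.14 to 19.23 RPM. The mature sequences are 21 or 22 bases long. Efficiency of ligation differs between miRNAs in small RNA libraries, so ratios between members are ratios of reads and not of molecules.

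All 4 members had a mean of at least 1 RPM in fibrosis 1 and normal 1, so none was lost to that minimum. All 4 ratios of fibrosis 1 to normal 1 were below 1, and they spanned 0.765 to 0.876. Among the 147 miRNAs at that minimum 64.6% had a ratio below 1, the median ratio was 0.916 and that of the 4 members was 0.856. An interval below 1 was found for 1 of the 4 members, miR-16, against 22.4% of all 147 miRNAs, which is near the background. None of the 4 members differed by 1.5-fold or more in either direction, against 19.0% of the 147. These shares depend on level. At a mean of at least 10 RPM, which 3 members reached, 34.2% of 76 miRNAs had an interval below 1. Only 7.89% of those 76 differed by 1.5-fold or more. Fibrosis 1 over the duplicated library gave 1 member past 1.5-fold (miR-15b) against 32.0% of 147 miRNAs, and 1 with an interval below 1 (miR-195) against 20.4%. The duplicated library over normal 1 gave 1 member past 1.5-fold (miR-15b) against 41.9% of 148 miRNAs, and 2 with intervals below 1 (miR-15b and miR-16) against 29.7%. At a mean of at least 10 RPM, intervals below 1 made up 33.3% of 72 miRNAs for fibrosis 1 over the duplicated library. For the duplicated library over normal 1 they made up 38.4% of 73. These 3 comparisons share libraries, and each is given for itself.

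**Figure D2:**
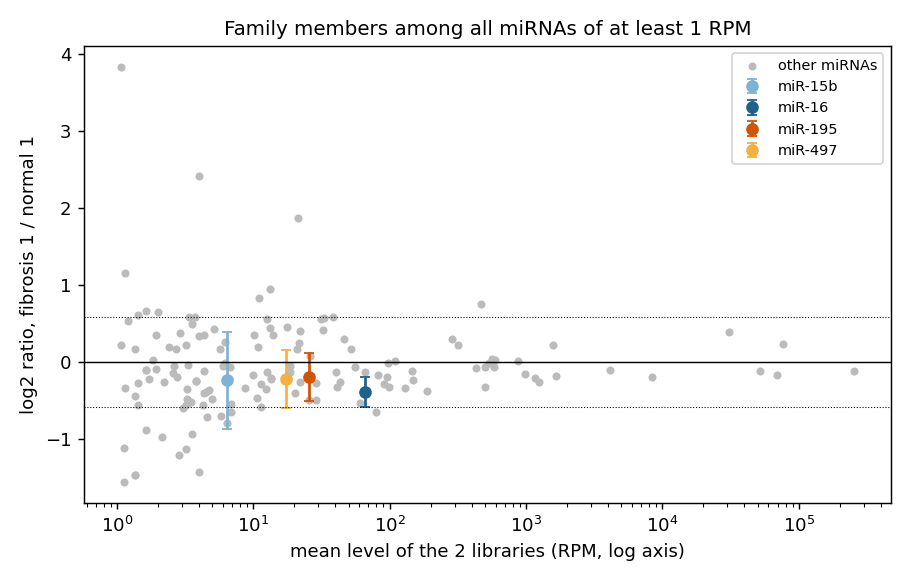
Log2 ratio of fibrosis 1 to normal 1 (vertical axis) against the mean level of the 2 libraries in RPM (horizontal log axis) for 147 miRNAs of at least 1 RPM, with 95% counting intervals on the 4 members and dotted lines at 1.5-fold. The members lie below 0 within the cloud of other miRNAs, and the interval of miR-16 alone among them leaves out 0.

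The comparison of the conditions with a test across all miRNAs gave no call for a member. With the duplicated library counted once as fibrosis, limma on log2(RPM + 1) over 294 miRNAs called 0 (0.0%) at an adjusted p under 0.05, with 36 at an unadjusted p under 0.05. The difference for miR-16, fibrosis minus normal on that scale, was -0.41 (SE 0.12, limma adjusted p 0.476), lower in both libraries counted as fibrosis. That of miR-15b was -0.47 (SE 0.38, limma adjusted p 0.723), also lower in both. miR-195 and miR-497 had -0.03 each (limma adjusted p 0.963 and 0.964), with 1 of the 2 libraries on each side of normal 1, and TMM or DESeq2 factors turned the sign of both. With the duplicated library counted once as normal, limma again called 0 (0.0%) of 294, with 27 at an unadjusted p under 0.05. The members' limma adjusted p-values were then 0.891 to 0.951 and miR-15b turned to 0.16. On the reads recovered from the RPM with the duplicated library as fibrosis, edgeR's quasi-likelihood test called 0 of 294, with 9 at an unadjusted p under 0.05, and DESeq2 called 1, which was no member. A lone library is assumed in these fits to vary like the pair, and with 1 library on 1 side the spread within that group is not measured.

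The makeup of the family, which does not depend on the scaling between libraries, differed most in the duplicated library. miR-16 made up 55.5% (51.8 to 59.2) of the family reads in fibrosis 1, 58.6% (55.3 to 61.8) in normal 1 and 50.2% (46.4 to 54.0) in the duplicated library. miR-195 made up 23.3%, 21.5% and 27.5% in the same libraries, miR-497 made up 15.5%, 14.5% and 18.8%, and miR-15b made up 5.72%, 5.43% and 3.45%. By cluster, the chromosome 10 pair of miR-195 and miR-497 held 38.8% (35.2 to 42.4) of the family reads in fibrosis 1 and 36.0% (32.9 to 39.2) in normal 1, with overlapping intervals. In the duplicated library it held 46.3% (42.6 to 50.1), above both and without overlap, although by a narrow margin from fibrosis 1.

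**Figure D3:**
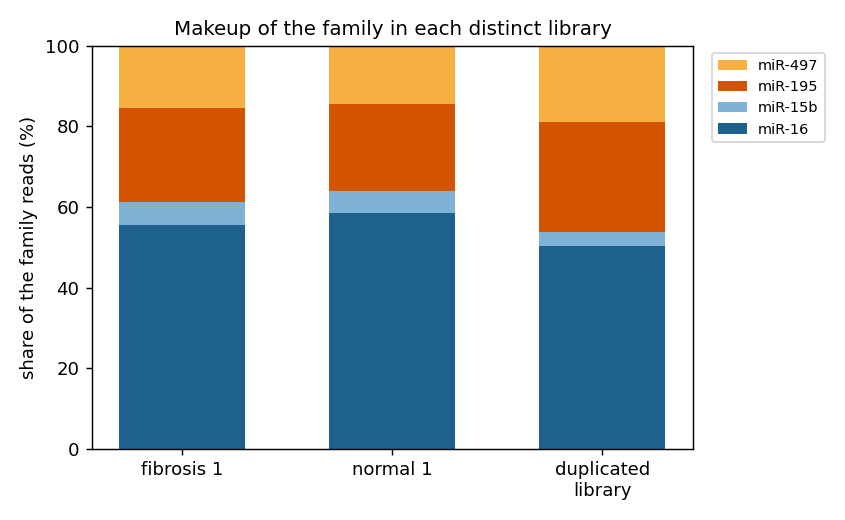
Share of the family reads (vertical axis, percent) held by each member, stacked, in fibrosis 1, normal 1 and the duplicated library, with the chromosome 2 pair in blue and the chromosome 10 pair in orange. The chromosome 10 pair holds 38.8%, 36.0% and 46.3% in these libraries.

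With all reads of miR-16 counted as chromosome 2, the 2 pairs thus took different courses over the 3 libraries. The chromosome 2 pair summed to 63.2 RPM in fibrosis 1, 81.7 RPM in normal 1 and 58.7 RPM in the duplicated library, and the chromosome 10 pair to 40.0 RPM, 46.0 RPM and 50.7 RPM. Fibrosis 1 stood at 0.773 (0.681 to 0.876) of normal 1 for the chromosome 2 pair, and at 0.870 (0.739 to 1.024) for the chromosome 10 pair, whose interval left out 1 in 2 of the 6 scalings. The duplicated library stood at 0.718 (0.628 to 0.819) of normal 1 for the chromosome 2 pair and at 1.10 (0.942 to 1.29) for the chromosome 10 pair, likewise leaving out 1 in 2 of the 6 scalings. Fibrosis 1 stood at 1.08 (0.935 to 1.24) of the duplicated library for the chromosome 2 pair. For the chromosome 10 pair it stood at 0.790 (0.670 to 0.930), an interval below 1 in each of the 6 scalings.

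Within the chromosome 10 cluster the mates kept almost the same proportion. Reads of miR-497 over reads of miR-195 came to 0.665 (0.518 to 0.850) in fibrosis 1, 0.675 (0.537 to 0.847) in normal 1 and 0.686 (0.545 to 0.861) in the duplicated library. These values differ by much less than the counting error of each. Within the chromosome 2 cluster, miR-15b over miR-16 came to 0.103 (0.0728 to 0.142), 0.0926 (0.0677 to 0.124) and 0.0688 (0.0435 to 0.104) in the same libraries, with overlapping intervals. Across clusters, miR-195 over miR-16 came to 0.420 (0.348 to 0.504), 0.367 (0.309 to 0.433) and 0.547 (0.456 to 0.655). The last lies above that of normal 1 without overlap.

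Reads of the family fell almost wholly on the rows without an asterisk. The files give names and not sequences, so these rows were taken as the 5p arms, which carry the seed, from the missing asterisk alone. The asterisk rows, the minor arms, had 0 or 1 read for miR-15b and 1 or 2 reads for miR-195 in each library. miR-16* and miR-497* had 0 reads in each of the 3 libraries. Taken as 3 reads, the limit that a count of 0 allows is 0.432 RPM in fibrosis 1, 0.424 RPM in normal 1 and 0.472 RPM in the duplicated library. At these levels no difference in arm use was detectable. The rows of miR-322 had the reverse pattern, and which arm each of them holds was not checked. Its asterisk row held 353 reads in fibrosis 1, 291 in normal 1 and 398 in the duplicated library, against 29, 21 and 26 reads on the row without one in the same libraries.

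The X-linked relatives were together higher in fibrosis 1 than in normal 1. miR-322 stood at 4.17 RPM in fibrosis 1, 2.97 RPM in normal 1 and 4.09 RPM in the duplicated library, and miR-503, which restrains the cell cycle, at 17.4 RPM, 9.05 RPM and 11.6 RPM. The ratio of fibrosis 1 to normal 1 was 1.92 (1.41 to 2.65) for miR-503, while that of miR-322, at 1.405 (0.774 to 2.59), was not distinguishable from 1 at this depth. Together they came to 21.6 RPM in fibrosis 1 against 12.02 RPM in normal 1, a ratio of 1.79 (1.37 to 2.37). The 4 members with both relatives added summed to 124.7 RPM in fibrosis 1, 139.7 RPM in normal 1 and 125.1 RPM in the duplicated library. Fibrosis 1 stood at 0.893 (0.814 to 0.979) of normal 1 and at 0.997 (0.905 to 1.10) of the duplicated library. These sums take the miR-322 row without an asterisk, whose arm was not checked. The asterisk row held far more reads, with a ratio of fibrosis 1 to normal 1 of 1.23 (1.05 to 1.45). Sums with that row in its place would differ and were not computed.

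The summed marker lists also differed between the libraries, and not all in the order of the family sum. 3 libraries can stand in few orders, so an order shared with a list carries little information. miR-16 is abundant in blood cells, and the erythroid list (miR-451 and miR-144, both with reads in each library) summed to 2.88 RPM in fibrosis 1, 7.78 RPM in normal 1 and 2.04 RPM in the duplicated library. This is the order of the chromosome 2 pair, but in that pair fibrosis 1 and the duplicated library were not distinguishable. Their ratio was 1.08 (0.935 to 1.24), and 0.930 with upper-quartile factors, which turns their order. Erythroid reads were few. miR-451 had 15 in fibrosis 1, 41 in normal 1 and 11 in the duplicated library, and miR-144 had 5, 14 and 2. 2 of 2 erythroid markers were lower in fibrosis 1 than in normal 1, against 64.6% of the 147 miRNAs above. The striated muscle list (miR-1, miR-133a, miR-133b, miR-206 and miR-499) summed to 19.7 RPM, 28.3 RPM and 38.2 RPM, the order of the chromosome 10 pair. miR-499 alone gave 17.4 RPM, 22.9 RPM and 31.8 RPM of these sums. In the chromosome 10 pair, neighbouring libraries in that order were not distinguishable in the RPM as scaled by the authors. Fibrosis 1 stood at 0.870 (0.739 to 1.024) of normal 1, and the duplicated library at 1.10 (0.942 to 1.29). All 5 striated muscle markers were lower in fibrosis 1 than in normal 1. Only miR-1 and miR-499 are among the 147 miRNAs above, of which 64.6% were lower. The other 3 lay below 1 RPM and had few reads. miR-206 had 2 reads in fibrosis 1, 4 in normal 1 and 4 in the duplicated library, and miR-133a and miR-133b had 0 reads in fibrosis 1 and in the duplicated library, against 2 and 1 in normal 1. The hepatocyte list summed to 253095 RPM in fibrosis 1, 273727 RPM in normal 1 and 257024 RPM in the duplicated library, and miR-122 made up most of it. This is the order of the family sum, in which fibrosis 1 and the duplicated library lay close together. 5 of 5 hepatocyte markers were lower in fibrosis 1 than in normal 1, against the same 64.6%.

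The lists of fibrogenic and inflammatory cells ran otherwise. The stellate and mesenchymal list came to 669 RPM, 466 RPM and 1009 RPM in fibrosis 1, normal 1 and the duplicated library, with 2 of 5 markers higher and 3 lower in fibrosis 1 than in normal 1. miR-199a-3p made up most of this sum. The leukocyte list came to 88.6 RPM, 55.3 RPM and 108 RPM, with 4 of 7 higher and 3 lower, and miR-142-5p and miR-146b made up most of it. The endothelial list came to 7.77 RPM, 6.51 RPM and 10.9 RPM, with 2 of 2 higher. Its ratio of fibrosis 1 to normal 1, 1.19 (0.791 to 1.81), was not distinguishable from 1. Beside the counts of these lists, 64.6% of the 147 miRNAs above were lower in fibrosis 1 than in normal 1. Several directions rest on few reads. Fibrosis 1 and normal 1 had 7 and 2 for miR-223, 7 and 4 for miR-150, 3 and 5 for miR-142-3p, and 12 and 8 for miR-126. The first 3 of these miRNAs averaged below 1 RPM and are not among the 147. None of the markers of these 3 lists was at 0 in any library. The part of any of these cells in the family's levels was not tested, and in bulk tissue fewer cells of a type and less RNA per cell cannot be told apart.

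**Figure D4:**
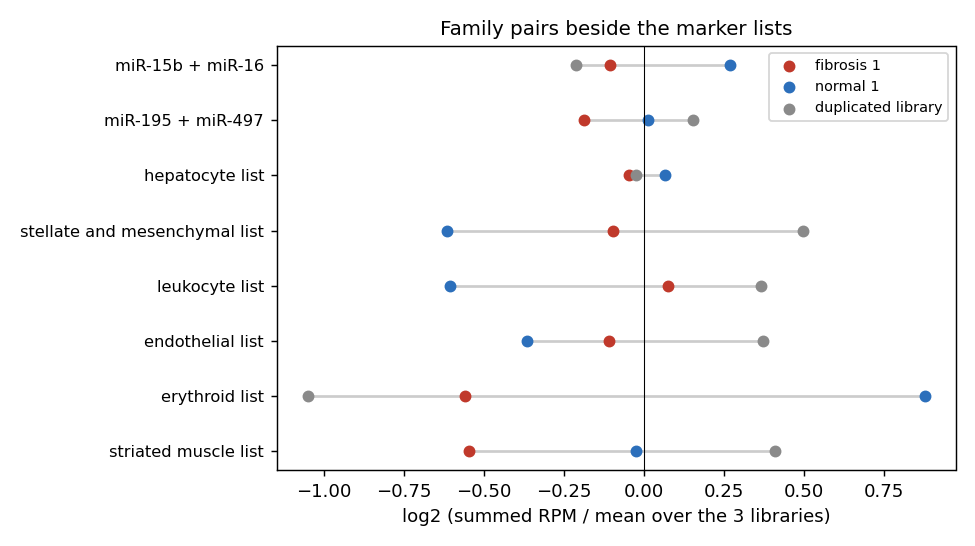
Log2 of the summed RPM over its mean of the 3 libraries (horizontal axis) for the 2 family clusters and the 6 marker lists, with a point each for fibrosis 1, normal 1 and the duplicated library. The order of the libraries for miR-15b and miR-16 is that of the erythroid list, and for miR-195 and miR-497 that of the striated muscle list, of which miR-499 holds most. 3 libraries can stand in few orders, so a shared order carries little information. For miR-15b and miR-16 together, fibrosis 1 and the duplicated library were not distinguishable (ratio 1.08, 0.935 to 1.24). For miR-195 and miR-497 together, neither fibrosis 1 (0.870, 0.739 to 1.024) nor the duplicated library (1.10, 0.942 to 1.29) was distinguishable from normal 1.

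The miRNAs most like the family were sought among 70 others with a mean of at least 10 RPM, by the distance between log2 profiles relative to the mean of the 3 libraries, which is few points for a likeness. Nearest to the family sum was miR-22, at a distance of 0.017, with 88.5 RPM in fibrosis 1, 111 RPM in normal 1 and 93.4 RPM in the duplicated library. miR-122*, miR-22*, miR-29a and miR-192 followed, at distances of 0.056 to 0.11. Nearest to miR-16 were miR-664-2*, miR-23b, miR-194, miR-29c and miR-22, at 0.093 to 0.15. miR-194, a hepatocyte miRNA, stood at 49.9 RPM, 72.1 RPM and 47.2 RPM in the same libraries. miRNAs of 1 library share its depth and scaling, so these distances describe the 3 libraries only.

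The steadiness of the miR-497 to miR-195 ratio was set beside other clusters, a comparison chosen after its values were seen. From the RefSeq table, 67 rows without an asterisk or arm suffix had 1 locus and a mean of at least 1 RPM, and they formed 13 pairs on 1 strand with starts within 10 kb of each other and reads in each library. Some pairs share a member. From the highest to the lowest of the 3 libraries, the ratio of miR-195 to miR-497 changed 1.03-fold, and that of miR-15b to miR-16 changed 1.498-fold, with a median of 1.47-fold over the 13 pairs. The pair of let-7e and miR-99b, with 86 or more reads in each library, changed 1.27-fold. miR-143 and miR-145, smooth muscle and fibroblast miRNAs of 1 transcript, changed 1.95-fold, and miR-23a and miR-27a changed 8.96-fold, on as few as 9 reads of a mate. These ranges hold counting error, which is larger for pairs with few reads, and the difference between pairs was not tested.

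**Figure D5:**
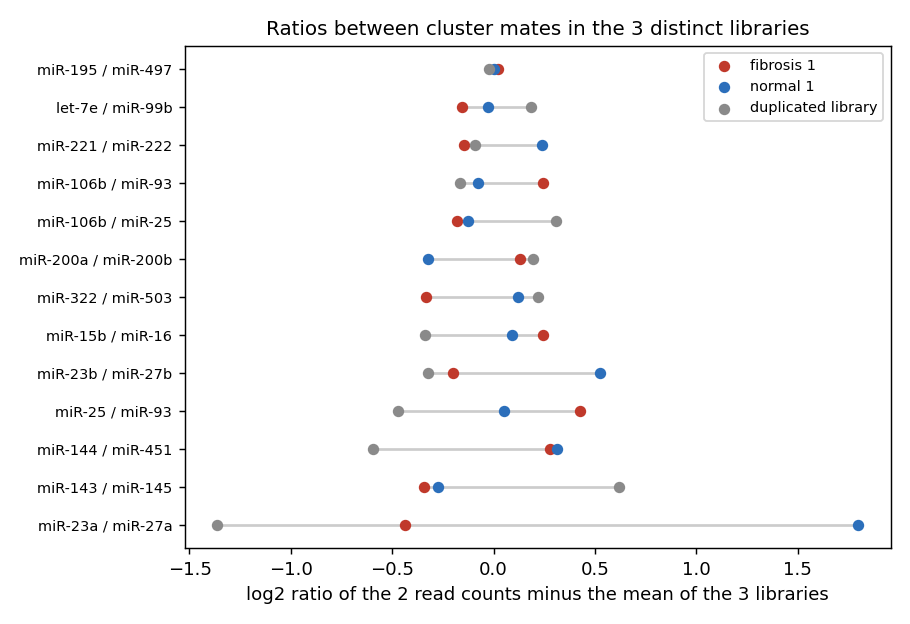
Log2 ratio of the reads of 2 neighbouring miRNAs minus its mean over the 3 libraries (horizontal axis) for the 13 pairs within 10 kb, 1 row a pair, with a point each for fibrosis 1, normal 1 and the duplicated library. The points of miR-195 and miR-497 nearly coincide (1.03-fold), and those of miR-23a and miR-27a lie farthest apart (8.96-fold).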

How the data were processed

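The deposited files hold RPM values, reads scaled to a common library size, that the authors computed, per the file headers and values, with 1 file for each of 4 rat liver samples. Per the labels' protocols, small RNA libraries came from an Illumina preparation kit, and CASAVA 1.4 and build rn5 are named per the submitters' processing notes. For the aligner, the miRNA annotation and the rule for reads with several matches nothing is stated there. The smallest value above 0, refined on the larger values, gave the worth of 1 read in RPM, and from it each library's scaling total. With it 100% of the values above 0 came out as whole reads, within 0.01 reads.

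Ratios between libraries and shares carry exact (Clopper-Pearson) 95% intervals of the reads, and levels exact Poisson intervals. limma 3.58.1 (R 4.3.3), with a mean-variance trend, was run on log2(RPM + 1) over miRNAs above 0 in any library, with Benjamini-Hochberg adjustment over all of them. Differences on this scale understate the change where levels are low. The recovered reads were also tested with edgeR 4.0.16 and DESeq2 1.42.0. p-values measure only the spread between these libraries, which may be technical. Named miRNAs are the members, their asterisk rows, miR-322 and miR-503, the 5 nearest profiles each of the family sum and of miR-16, and markers from the cell type lists. The other members of cluster pairs, the miRNAs nearest to the chromosome 10 pair and the DESeq2 call in the closing section were named after their values were seen. Members, lists and tests were chosen with earlier results of these data known. Alternatives covered scaling, pseudocount, filters, the tool, the place of the duplicated library, the replicate block and leaving out libraries. Sequences and loci are RefSeq's in build GRCr8. The deposited values carry no coordinates. Python 3.11.15, scipy 1.17.1 and matplotlib 3.10.9 were used.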

Additional observations from a re-analysis of the deposited data

How the results depend on the processing

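Scaling alone left the family ratio of fibrosis 1 to normal 1 (0.808) between 0.769 and 0.846, and without miR-16 it was 0.868 (0.745 to 1.01). It was 0.831 with the duplicated library as fibrosis, 0.873 with it as normal and 0.899 with 4 files as labelled, where that library stands in both groups. With the duplicated library in place of fibrosis 1 or of normal 1, a choice made after seeing the data, it was 0.856 to 0.9435. The same substitution gave 0.734 to 1.04 for miR-16, turning its direction when normal 1 was replaced, 0.545 to 1.56 for miR-15b, 0.800 to 1.10 for miR-195 and 0.775 to 1.11 for miR-497. The family share on the full scaling total was 0.0103% in fibrosis 1, 0.0128% in normal 1 and 0.0109% in the duplicated library. With miR-122 left out of the reads it was 0.0396%, 0.0504% and 0.0394%. miRNAs past 1.5-fold numbered 12 higher and 16 lower, 5 and 1 at a mean of at least 10 RPM and 77 and 57 with any read. The division was 17 and 13 with TMM or DESeq2 factors, 8 and 22 with upper-quartile factors, 16 and 15 on listed reads and 9 and 21 without miR-122. No scaling shifted the ratios of fibrosis 1 to normal 1 by over 0.1 on the log2 scale. Upper-quartile factors shifted those of the duplicated library to normal 1 by 0.14 and those of fibrosis 1 to the duplicated library by -0.21. DESeq2 factors and the total without miR-122 shifted the first by 0.11 and -0.13.

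limma called 0 in all its settings run here, with no member passing in any, and DESeq2 called 1 (miR-146b, adjusted p 0.00944). The log2 difference of miR-195 turned to 0.032 with TMM factors, 0.058 with DESeq2 factors, 0.041 in edgeR and 0.070 in DESeq2, and that of miR-497 to 0.032, 0.057, 0.043 and 0.073. That of miR-15b turned to 0.16 with the duplicated library as normal. Leaving out 1 of the 4 files gave -0.47 to 0.27 for miR-15b, -0.41 to 0.030 for miR-16, -0.25 to 0.063 for miR-195 and -0.28 to 0.073 for miR-497. The cause was not tested. With 4 files as labelled, the replicate block called 0, as did the fit without it, with member adjusted p-values of 0.602 to 0.632 from limma. The second pair is 1 library in both groups, so whether the numbers pair the samples could not be checked. A library that stands in both groups also shrinks the differences by construction. The lack of calls with 4 files as labelled, or with fibrosis 1 or normal 1 left out of them, therefore adds no information. Without the duplicated library each group has 1 library and no test remains. Depth limits miR-15b most, with 24 to 49 reads.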

Other observations

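The profile of the chromosome 10 pair (miR-195 and miR-497), looked up after the values were seen, was nearest to that of miR-21, a miRNA raised in many kinds of tissue injury. miR-21 stood at 934 RPM in fibrosis 1, 1042 RPM in normal 1 and 1178 RPM in the duplicated library, at a distance of 0.033 on the log2 scale among 70 miRNAs. It was thus lower in fibrosis 1 than in normal 1, with a ratio of 0.897 (0.867 to 0.927). let-7f, miR-31, miR-99a and let-7a followed, at distances of 0.076 to 0.11.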
